A study of Gallus gallus with 3 samples.

Results

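Limb connective tissue (CT) cells of the chicken forelimb were compared between embryonic day 6 (E6) and embryonic day 10 (E10). CT cells were chosen by their own counts: a cell needed at least 1 unique molecular identifier (UMI, a tag that marks 1 captured RNA molecule) of PRRX1, TWIST2 or PDGFRA, and 0 UMIs of the muscle genes PAX7, MYF5, MYOD1 and MYOG. This rule gave 2776 of 3929 cells at E6 and 9554 of 25507 cells at E10, together 12330 of the 34690 cells of the series. Droplet-based 3′ single-cell RNA-sequencing had been done on dissociated forelimbs at 3 stages, with 1 library a stage, and the E4 library entered only the count of all cells. The E6 and E10 libraries each came from forelimbs of 3 embryos, pooled before the library was made, with no treatment or transgene in the labels. Pooled embryos cannot be told apart within a library, so stage, library and pool of embryos cannot be told apart either. No test between the stages was possible, and each interval given is a 95% exact interval that covers counting error alone.

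PRRX1 and TWIST2 are transcription factors of the lateral plate-derived limb mesenchyme, and PDGFRA is a receptor for platelet-derived growth factor carried by fibroblasts. The limb mesenchyme first carries the homeobox and T-box factors that give cells their position along the limb axes. Its cells then become the fibroblasts of tendon, muscle CT and dermis, which build a matrix of collagen fibrils, proteoglycans and glycoproteins.

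CT cells were 70.7% of E6 cells (69.2% to 72.1%) and 37.5% of E10 cells (36.9% to 38.1%). The median CT cell held 2401 UMIs at E6 and 1187 at E10, and the summed UMIs of all CT cells were 7190497 and 12495615. A deeper cell shows more genes, so depth bears on these shares of cells, and its part was not tested. Summed counts are given as CPM, the counts of a gene scaled to a total of 1000000 CT cell UMIs a stage, in which 1 UMI was worth 0.139 CPM at E6 and 0.080 CPM at E10. The 3′ counts were compared between stages and not between genes. A summed level does not separate a change in the number of cells that carry an RNA from a change in RNA per cell, and fewer cells of a type and less RNA per cell cannot be told apart in it. At E10 the number of cells was above the 5000 that the labels give as loaded. Barcodes that hold free RNA and no cell may therefore be among the 25507, which bears on the 37.5% share and on the E10 levels, and their part was not tested. The libraries shared 32 cell barcodes, of which 9 belonged to CT cells.

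The label was checked with genes outside the rule. TWIST1, another factor of limb mesenchyme, stood at 616 CPM in E6 CT cells and 162 CPM in E6 muscle-marker cells, which had a UMI of a muscle gene and none of PRRX1, TWIST2 or PDGFRA. At E10 these TWIST1 levels were 705 and 57.6 CPM. COL1A1 was at 1949 and 811 CPM in the same order at E6, and at 16136 and 1095 CPM at E10. Markers of other cell types were also present. Summed endothelial markers were at 106 CPM at E6 and 137 CPM at E10, leukocyte markers at 23.8 and 33.6 CPM, ectoderm markers at 72.2 and 77.0 CPM, and neural crest and nerve markers at 274 and 337 CPM. Of 4 counted endothelial markers, 2 were at least 2-fold higher and none lower, with a median log2 ratio of 0.85. Of all 7535 genes counted, with a mean of at least 10 CPM over the stages, 6.66% were higher and 3.46% lower. The 2 higher markers were EGFL7, a secreted protein of vessels, from 4.87 to 20.7 CPM, and SOX18, a factor of endothelium, from 12.2 to 32.3 CPM. EGFL7 was counted through its E10 level, and the SOX18 ratio was 1.35 with PDGFRA alone as marker. As an alternative, CT cells with 2 or more UMIs of 68 marker genes of these types, smooth muscle and pericytes included, were left out. These were 556 cells at E6 and 1630 at E10. Without them 531 genes were at least 2-fold higher and 283 lower, of which 472 and 247 were also called with all CT cells. The part of endothelial cells alone was not tested. Smooth muscle and pericyte markers summed to 85.8 CPM at E6 and 375 CPM at E10. Of 7 counted, 6 were at least 2-fold higher and none lower, with a median log2 ratio of 1.99. For ACTA2, one of them, the top 1% of CT cells held 100% of 90 UMIs at E6 and 58.1% of 1698 at E10. The part of such cells alone was not tested. Muscle contractile genes summed to 394 CPM at E6 and 898 CPM at E10. At unequal depth, 24.3% of CT cells at E6 and 23.0% at E10 had 2 or more UMIs of these genes. Blood markers summed to 62.5 and 3308 CPM, and both lists are described further on.

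Among the genes that chose the cells, PRRX1 was detected in 78.7% of CT cells at E6 and 59.9% at E10, TWIST2 in 50.3% and 52.3%, and PDGFRA in 16.2% and 17.1%. Their levels were 1223 and 857 CPM for PRRX1, 484 and 753 CPM for TWIST2, and 72.9 and 145 CPM for PDGFRA. These values follow from the rule and were read as a description. The shares here were not taken at equal depth, which was lower at E10, and its part was not tested. Exactly 1 marker UMI placed a cell in the set for 20.6% of CT cells at E6 and 45.7% at E10. Just inside this edge, E10 cells with 1 marker UMI had 15239 CPM of COL1A1 and 3309 CPM of DCN. The 10642 E10 cells outside, with 0 UMIs of the 7 defining genes, had 9130 and 2527 CPM. The outside cells are all cells without such a UMI, whatever their type. At E10 the haemoglobin gene HBBA was at 14587 CPM in them and 1222 CPM in CT cells, and the part of other cell types was not tested. At E6 the TBX5 level was 447 CPM just inside and 345 CPM in the 763 cells outside. These genes, each at the stage given, were detected on either side of the edge, at higher levels inside. At E6 this did not hold for all matrix genes. DCN was at 971 CPM outside against 719 in all CT cells, and FN1 at 701 against 459. COL3A1 was at 112 CPM against 50.5 and POSTN at 193 against 55.0. LUM was lower outside, at 153 CPM against 287, and COL12A1 at 99.0 against 128. At E10 COL3A1 was at 2248 CPM outside and 2316 in CT cells, and POSTN at 1278 and 2406. At the UMI limits, 32 CT cells at E6 lay within 10% above 700 UMIs and 31 barcodes within 10% below, and 129 and 101 lay so around 450 UMIs at E10.

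Across 7535 genes with a mean of at least 10 CPM over the stages, 502 (6.66%) were at least 2-fold higher at E10 and 261 (3.46%) at least 2-fold lower, the limit used here for a rise or a fall. The median log2 ratio of all these genes, E10 over E6, was -0.06. The interval of the ratio lay wholly past 2-fold for 378 of the higher and 169 of the lower genes. Ribosomal protein genes, which serve every cell, had no member past 2-fold among 66, with a median log2 ratio of -0.08.

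**Figure D1:**
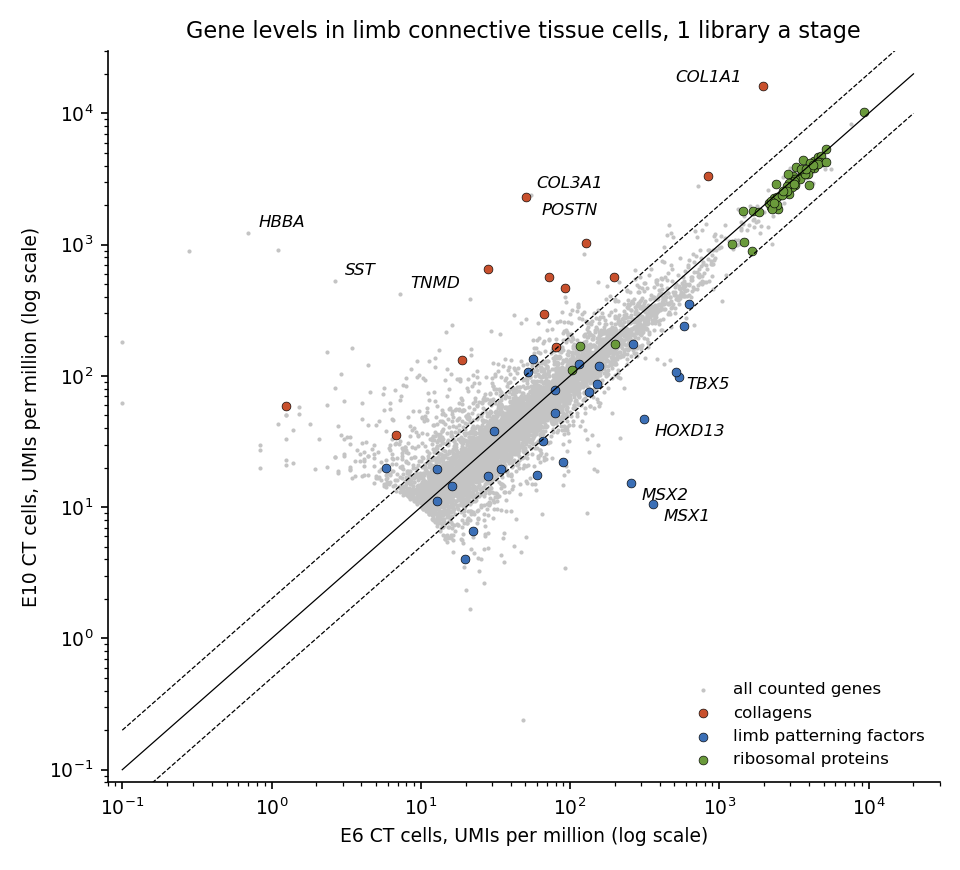
Level of each of 7535 genes in CT cells at E6 (x axis) and E10 (y axis), in CPM on log scales, with levels under 0.1 drawn at 0.1. The solid line marks equal levels and the dashed lines 2-fold. The 13 collagen genes (red) all lie above the upper dashed line, 11 of 28 limb patterning factors (blue) lie below the lower one, and ribosomal protein genes (green) lie between them.

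The collagens rose together. All 13 counted genes of the list of fibrillar and other collagens were at least 2-fold higher at E10, where 6.66% of all genes passed that limit. Their median log2 ratio was 2.82. The files held 16 genes of the list, and those with a mean under 10 CPM were not counted. COL8A1 and COL4A2, at 1.25 and 6.82 CPM at E6, were counted through their E10 levels. Summed over the list, the level was 3549 CPM at E6 and 25756 CPM at E10, 0.355% and 2.58% of all CT cell UMIs. COL1A1 was the largest part of it. COL1A1, a chain of the type I collagen that makes up most of tendon and dermis fibrils, went from 1949 to 16136 CPM, 8.28-fold higher (8.14 to 8.42). COL3A1, the collagen of fine fibrils in loose CT, went from 50.5 to 2316 CPM, 45.9-fold higher (41.4 to 51.0). It was the collagen with the largest ratio after COL8A1, a network-forming collagen, which had 9 UMIs at E6 and 742 at E10 and a ratio of 47.4 (24.9 to 104).

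The collagens that decorate fibrils showed the same direction. COL14A1 stood at 28.1 CPM at E6 and 648 CPM at E10, 23.0-fold higher (20.04 to 26.6). COL12A1, its relative in dense CT, went from 128 to 1029 CPM, 8.05-fold higher (7.53 to 8.62). COL5A1, which starts fibril assembly, rose 3.94-fold (3.84 to 4.05) from 845 CPM. Among the chains of type VI collagen, which forms beaded filaments around cells, COL6A2 rose 7.83-fold (7.16 to 8.58) and COL6A1 7.04-fold (5.90 to 8.45). COL4A2 of basement membranes rose from 6.82 to 35.6 CPM. The smallest ratio in the list was 2.04 (1.86 to 2.24), for COL5A2, a chain of type V collagen named after its values were seen, which was under 2-fold with at least 1000 UMIs a cell.

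In muscle-marker cells of the same libraries the collagen list had a median log2 ratio of 1.21 and 8 of its 13 genes past 2-fold, against 2.82 and 13 in CT cells. The share of all genes past 2-fold was not computed in muscle-marker cells, where the median log2 ratio of all counted genes was -0.04. Muscle-marker cells numbered 243 at E6 and 4495 at E10, and several of their E6 values rest on few UMIs. COL8A1 had 0 UMIs in them at E6 and 14 at E10, and its ratio of 0.553 follows from a floor of 3 UMIs. COL6A2 had 3 UMIs at E6 and COL3A1 7. The difference between these cell sets was not tested. Their COL1A1 was at 811 and 1095 CPM, and their COL3A1 at 8.80 and 220 CPM. Free RNA, taken from barcodes of 10 to 100 UMIs, held COL3A1 at 33.5 CPM at E6 and 832 CPM at E10. The part of free RNA in the muscle-cell values was not tested.

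**Figure D2:**
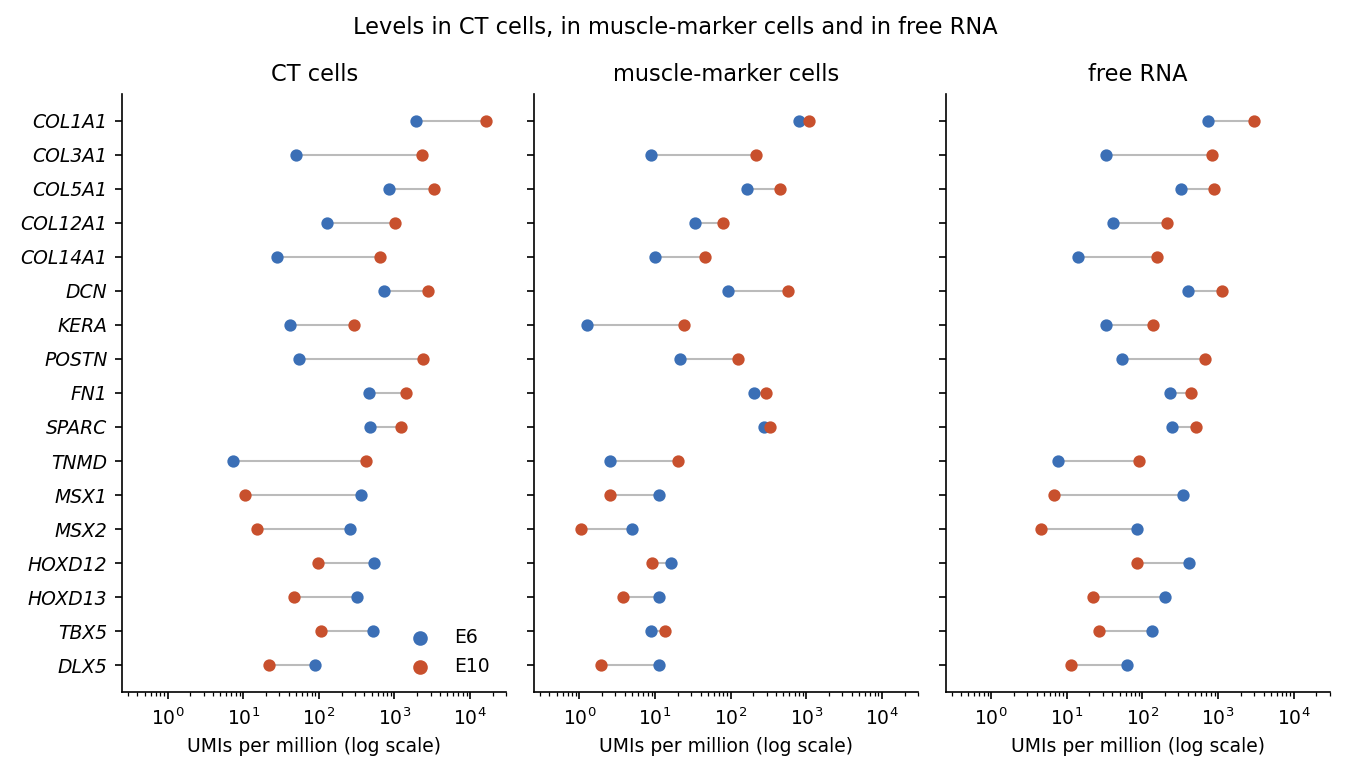
Levels of 17 genes at E6 (blue) and E10 (red) in CT cells, in muscle-marker cells and in free RNA, as CPM on a log scale. COL1A1 moved from 1949 to 16136 CPM in CT cells and from 811 to 1095 CPM in muscle-marker cells, and TBX5 fell in CT cells from 515 to 107 CPM.

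Summed over the list, of which COL1A1 was the largest part, the rise was seen in most CT cells and not in a few. When each cell was thinned to 450 UMIs drawn at random, the median CT cell held 1 UMI of the collagen list at E6 and 9 at E10. At E6 28.0% of CT cells had none, and at E10 2.09% had none. The 90th percentile of E6 cells was 4 UMIs, and 80.4% of E10 cells lay above it. COL3A1 alone had a UMI in 2.85% of thinned E6 cells and 51.0% of thinned E10 cells, and POSTN in 1.95% and 36.0%. In muscle-marker cells, thinned alike, COL3A1 had a UMI in 0.823% at E6 and 6.61% at E10, and their unthinned median depths were 3258 and 1361 UMIs. Without thinning, the 1% of E10 CT cells with the most COL3A1 held 7.57% of its UMIs.

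**Figure D3:**
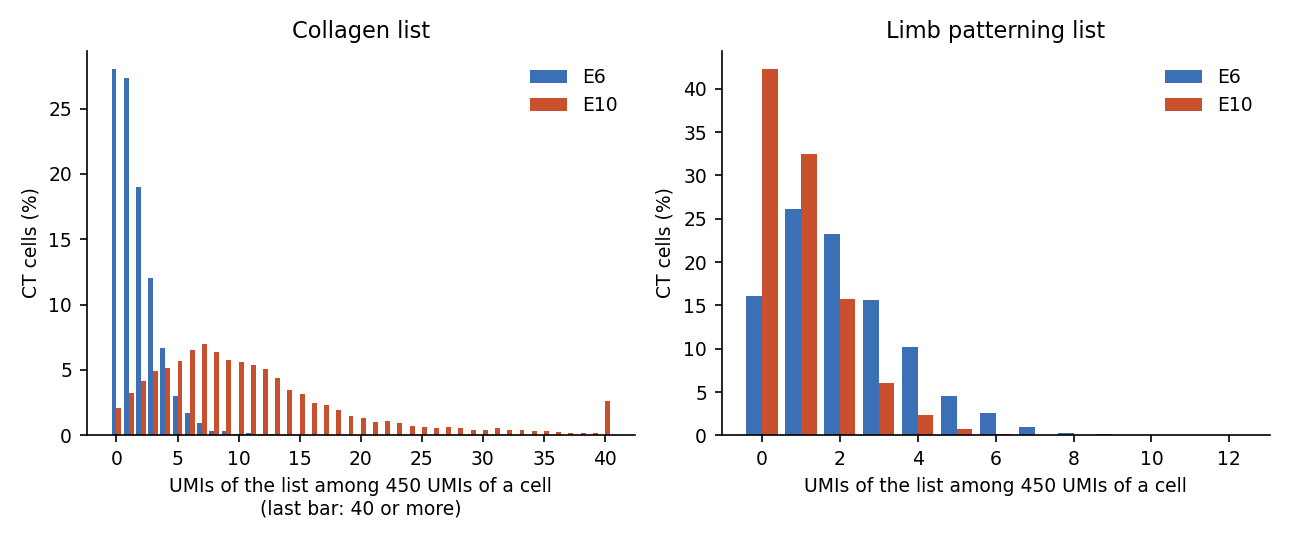
Share of CT cells (y axis, percent) by the number of UMIs of the collagen list (left) and of the limb patterning list (right) among 450 UMIs of each cell (x axis), at E6 (blue) and E10 (red). The median of the collagen list moved from 1 to 9 UMIs and that of the patterning list from 2 to 1. COL1A1 was the largest part of the collagen UMIs.

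Small leucine-rich proteoglycans, which bind collagen fibrils and set their spacing, had 4 of 7 genes at least 2-fold higher and none lower. Of all genes, 6.66% and 3.46% were so. The list median log2 ratio was 1.95. DCN (decorin) went from 719 to 2774 CPM, 3.86-fold higher (3.75 to 3.97). KERA (keratocan), known from cornea, went from 42.2 to 289 CPM, 6.86-fold higher (6.10 to 7.73). ECM2 rose 5.28-fold (4.40 to 6.39). LUM (lumican) and OGN (osteoglycin) stayed under the limit, with ratios of 1.52 (1.45 to 1.60) and 1.65 (1.53 to 1.78).

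Genes for collagen processing moved less. Of 19, 5 were at least 2-fold higher and none lower, against 6.66% and 3.46% of all genes. Their median log2 ratio was 0.71. SERPINH1, the collagen chaperone of the endoplasmic reticulum, went from 273 to 641 CPM, 2.35-fold higher (2.24 to 2.47). PLOD1, a lysyl hydroxylase, rose 2.23-fold (2.09 to 2.37), and P4HA1, a subunit of the prolyl hydroxylase, 2.09-fold (1.91 to 2.28). FKBP14, a prolyl isomerase that acts on procollagen, rose 2.77-fold (2.46 to 3.12). P4HB and PPIB, which serve many secreted proteins, had ratios of 1.63 (1.56 to 1.72) and 1.69 (1.64 to 1.74). With TWIST2 alone as marker the P4HA1 call was lost, and with PDGFRA alone those of SERPINH1 and PLOD1.

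Elastic fibre and matricellular genes, which link cells to the fibrils, had 19 of 42 genes at least 2-fold higher and 2 lower. Of all genes, 6.66% and 3.46% were so. The list median log2 ratio was 0.91. Of the higher genes, NOV, WISP1, MFAP5, THBS2 and SMOC2, at 3.48, 1.39, 5.70, 4.59 and 8.8 CPM at E6, were counted through their E10 levels. POSTN (periostin), a matricellular protein of tendon and dermis, went from 55.0 to 2406 CPM, 43.8-fold higher (39.7 to 48.5). FN1 (fibronectin) rose 3.10-fold (2.99 to 3.22) to 1423 CPM, SPARC 2.58-fold (2.48 to 2.68) to 1223 CPM, and VCAN (versican) 2.65-fold (2.55 to 2.75) to 1178 CPM. NOV and WISP1, secreted proteins of the CCN family, went from 3.48 to 164 CPM and from 1.39 to 38.9 CPM. MFAP5 of elastic microfibrils rose 14.1-fold (10.3 to 19.8), THBS2 16.5-fold (11.7 to 24.1) and TNC (tenascin-C) 5.43-fold (4.52 to 6.58).

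Matrix proteases and their inhibitors had 11 of 19 genes at least 2-fold higher and none lower, against 6.66% and 3.46% of all genes. Their median log2 ratio was 1.31. ADAM12, a membrane metalloprotease, rose 7.54-fold (6.20 to 9.26). The secreted serine protease HTRA1 rose 7.38-fold (6.42 to 8.53), and the collagen-cleaving cathepsin CTSK 4.55-fold (3.88 to 5.37). TIMP4, an inhibitor of metalloproteases, rose 9.63-fold (7.02 to 13.5). The gelatinase MMP2 had a ratio of 1.73 (1.65 to 1.81) and TIMP3 one of 1.83 (1.72 to 1.96), both under the limit.

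**Figure D4:**
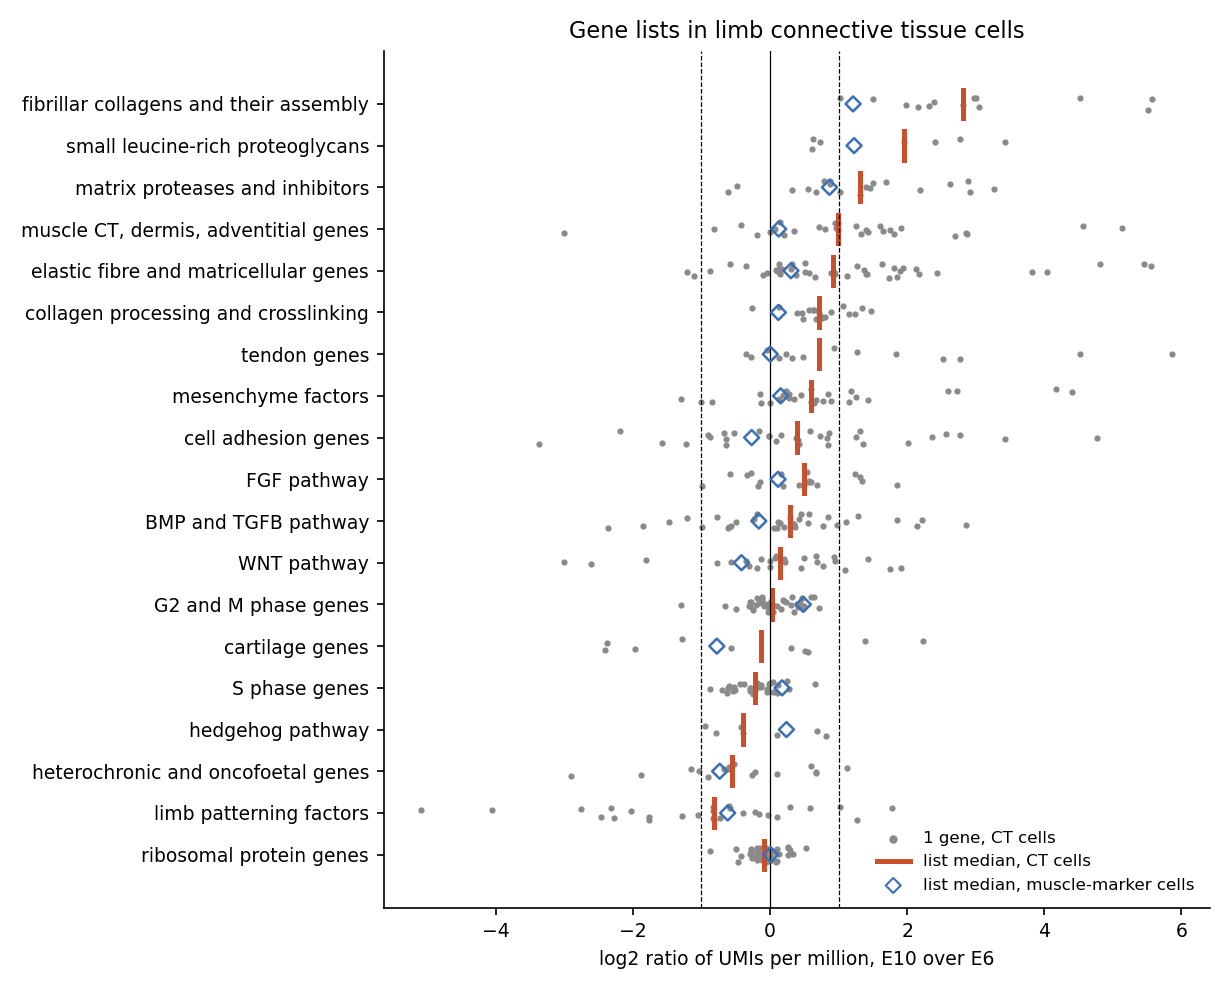
Log2 ratio of CPM, E10 over E6 (x axis), for each counted gene of 19 gene lists in CT cells (grey points), with the list median in CT cells (red bar) and in muscle-marker cells (blue diamond). Dashed lines mark 2-fold. Among the 19 lists drawn, of 39, the collagen list has the highest median in CT cells, 2.82, and the limb patterning list the lowest, -0.82. Blood markers, with a median of 9.22, are not drawn.

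Of 14 tendon genes, 6 were at least 2-fold higher and none lower, against 6.66% and 3.46% of all genes. TNMD (tenomodulin), a membrane protein of maturing tendon, went from 7.23 to 422 CPM, 58.3-fold higher (44.4 to 78.1). It was counted through its E10 level. At 450 UMIs a cell it had a UMI in 0.432% of CT cells at E6 and 13.6% at E10. CHODL rose 2.42-fold (2.24 to 2.62), but not past 2-fold with TWIST2 or PDGFRA alone as marker. SCX (scleraxis), the factor that marks tendon progenitors, had a level of 86.7 CPM at E6 and 68.3 CPM at E10, a ratio of 0.788 (0.710 to 0.875), and TGFBI one of 1.91 (1.80 to 2.03).

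OSR1, a zinc-finger factor of muscle CT, went from 44.0 to 105 CPM, 2.39-fold higher (2.11 to 2.71), and lost this call with at least 2000 UMIs a cell at both stages. OSR2 was low, with 6.4 and 5.44 CPM. The list of muscle CT, dermis and adventitial fibroblast genes had 14 of 29 genes at least 2-fold higher and 1 lower. Of all genes, 6.66% and 3.46% were so. The list median log2 ratio was 0.99. CD34 and CLEC3B, at 2.92 and 1.81 CPM at E6, were counted through their E10 levels. CD34, a surface protein of adventitial fibroblasts and vessels, went from 2.92 to 103 CPM, 35.2-fold higher (22.9 to 57.0). CLEC3B rose 23.6-fold (13.7 to 44.7), THY1 3.78-fold (3.29 to 4.35), the chemokine CXCL14 3.49-fold (3.21 to 3.81) and the WNT modulator SFRP2 3.36-fold (3.16 to 3.59). SFRP2 was under 2-fold with at least 2000 UMIs a cell. The member that fell was WIF1, a secreted WNT inhibitor, from 151 to 18.8 CPM, 8.04-fold lower (6.98 to 9.30).

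CT cells with a UMI of SCX or of OSR1 were set apart after seeing the data. At E6 446 had SCX and 247 OSR1, with 39 holding both, which is 8.74% of the SCX cells and 15.8% of the OSR1 cells, where OSR1 was in 8.90% and SCX in 16.1% of all CT cells. At E10 549 had SCX and 1020 OSR1, with 17 holding both, 3.10% and 1.67%, where OSR1 was in 10.7% and SCX in 5.75% of all CT cells. At E6 COL1A1 was at 2229 CPM in the SCX cells and 2422 CPM in the OSR1 cells. At E10 these levels were 40007 and 9759 CPM. COL1A1 thus lay close together in these sets at E6 and far apart at E10. At E10 TNMD was at 930 CPM in the SCX cells and 205 CPM in the OSR1 cells, and KERA at 616 and 364 CPM. CD34 was at 20.1 and 176 CPM, while COL3A1 was close, at 3437 and 3143 CPM. Summed patterning factors were also close, at 2486 and 2273 CPM. At E6 median depth was 2682 UMIs in the SCX cells and 2314 in the OSR1 cells, and at E10 1422 and 1238. Its part in these levels and shares was not tested.

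**Figure D5:**
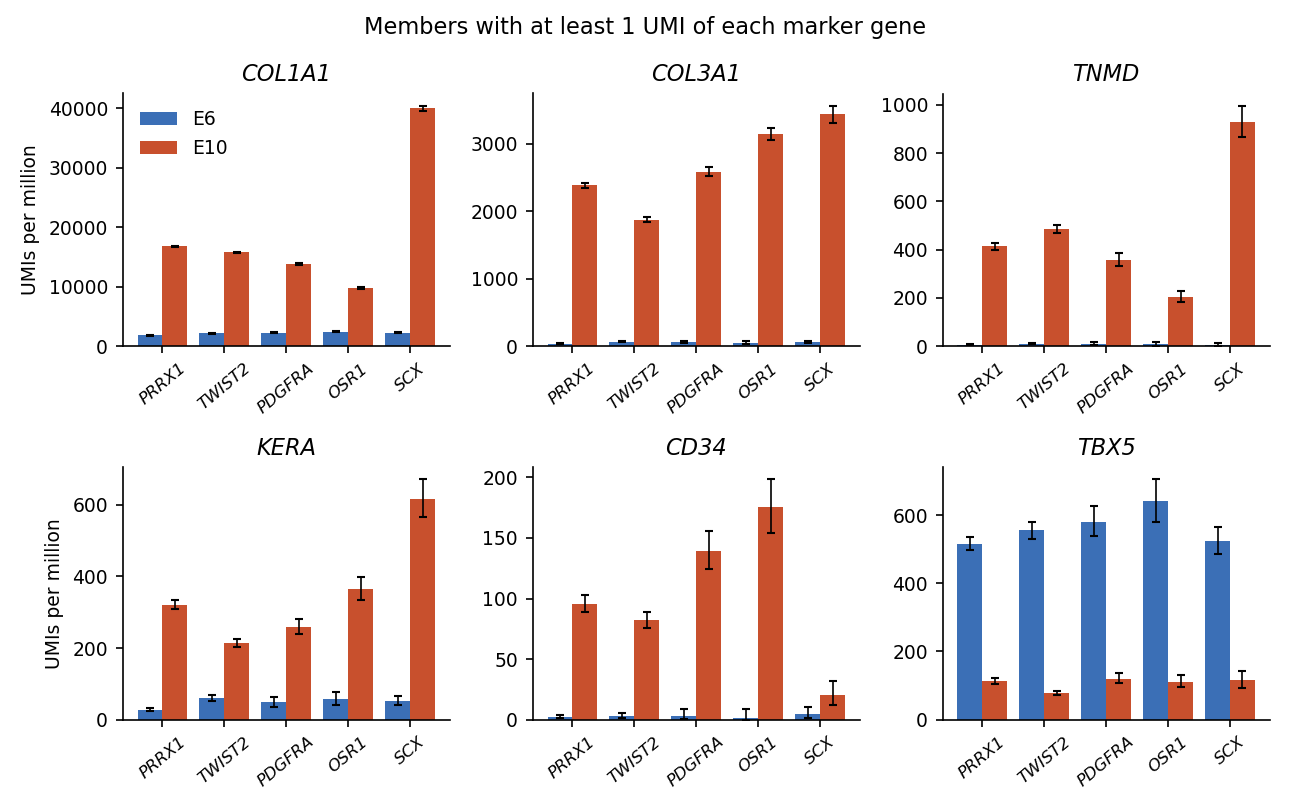
Levels of 6 genes, in CPM, in CT cells with at least 1 UMI of PRRX1, TWIST2, PDGFRA, OSR1 or SCX (x axis), at E6 (blue) and E10 (red), with 95% exact Poisson intervals that cover counting error alone. The sets overlap. At E10 COL1A1 and TNMD are highest in the SCX cells, with 40007 and 930 CPM, and CD34 in the OSR1 cells, with 176 CPM.

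Of 28 limb patterning factors, which give mesenchyme its position, 11 were at least 2-fold lower and 3 higher, with a median log2 ratio of -0.82, where 3.46% of all genes passed the lower limit. In muscle-marker cells 10 of these genes were at least 2-fold lower and 1 higher, with a median log2 ratio of -0.62. The share of all genes past 2-fold was not computed in these cells, so the 10 have no such share beside them. Some of these ratios rest on few UMIs, with 9 each for MSX1, HOXD13 and DLX5 in the 243 muscle-marker cells of E6. The difference between the cell sets was not tested. MSX1 and MSX2, homeobox factors of distal and undifferentiated mesenchyme, had the largest falls. MSX1 went from 358 to 10.6 CPM, 33.9-fold lower (28.5 to 40.7), and MSX2 from 255 to 15.3 CPM, 16.7-fold lower (14.4 to 19.5). At 450 UMIs a cell MSX1 had a UMI in 11.1% of CT cells at E6 and 0.471% at E10. In the free RNA of the E6 library MSX1 was at 349 CPM, and in that of E10 at 6.77 CPM. With free RNA subtracted at the share that haemoglobin set, 1.41% at E6 and 76.9% at E10, 34 genes of the list were counted. Over these the median log2 ratio of the list was 0.32, of opposite sign. At the 3.30% set without the E10 cells of 10 or more haemoglobin UMIs it was -0.80, and at the share set by ACTC1 -0.79.

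Of the HOX genes named here, which set position along the limb, HOXD13 and HOXD12 of the hand plate fell most. HOXA13, also in the list, is not among those named. HOXD13 went from 315 to 46.8 CPM, 6.73-fold lower (6.14 to 7.38), and HOXD12 from 538 to 97.5 CPM, 5.52-fold lower (5.18 to 5.89). The HOX genes that follow were named after their values were seen. HOXD11 had a ratio of 0.565 (0.519 to 0.615), HOXD10 one of 1.22 (1.04 to 1.44) and HOXD9 one of 1.5 (1.17 to 1.92). HOXD8 rose 2.04-fold (1.82 to 2.29), and was under 2-fold with at least 1000 UMIs a cell. HOXD4, outside the list, had a ratio of 1.30 (1.06 to 1.61). The ratios thus rose in order from HOXD13 to HOXD8 but not on to HOXD4, with overlapping intervals between HOXD10 and HOXD9 and between HOXD9 and HOXD8. HOXA11, HOXA10 and HOXA9 had ratios of 0.565 (0.516 to 0.619), 0.660 (0.589 to 0.740) and 0.667 (0.627 to 0.710), all under 2-fold.

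TBX5, the T-box factor of the forelimb, went from 515 to 107 CPM, 4.82-fold lower (4.53 to 5.14), and not past 2-fold with free RNA subtracted at the haemoglobin share. It was lower at E10 in CT cells with PRRX1 (516 to 113 CPM), with TWIST2 (555 to 77.6 CPM) and with PDGFRA (581 to 120 CPM). DLX5, a homeobox factor of distal mesenchyme and ectoderm, fell 4.08-fold (3.54 to 4.72), and LMX1B, which gives dorsal identity, 3.39-fold (2.88 to 4.01). The zinc-finger factor ZFHX3 fell 2.44-fold (2.33 to 2.56), whereas its relative ZFHX4 had a ratio of 0.565 (0.542 to 0.589). With the same subtraction LMX1B and ZFHX3 had E10/E6 ratios of 0.674 and 0.931. EMX2 rose 2.42-fold (2.17 to 2.70) and EN1, the ventral ectoderm factor, from 5.84 to 20.01 CPM. EN1 was counted through its E10 level, and with PDGFRA alone as marker its ratio was 1.19. Both were named after their values were seen.

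Of 28 other factors of mesenchyme, 8 were at least 2-fold higher and 2 lower, against 6.66% and 3.46% of all genes. Their median log2 ratio was 0.60. RUNX3, one of the higher genes, was counted through its E10 level. ZEB2, a zinc-finger factor of mesenchymal cells, went from 21.4 to 385 CPM, 18-fold higher (15.3 to 21.2). RUNX3 went from 3.06 to 64.7 CPM, 21.1-fold higher (13.9 to 33.9). NFIX, a factor of late differentiation in several tissues, rose 6.07-fold (5.32 to 6.95), and KLF2, which responds to flow in vessels, 6.62-fold (5.62 to 7.84). SNAI1, of early mesenchyme, fell 2.47-fold (2.19 to 2.78), but had an E10/E6 ratio of 0.513 with free RNA subtracted at the haemoglobin share. TWIST1, TCF12 and TCF7L2 had ratios of 1.14 (1.1 to 1.19), 0.911 (0.890 to 0.932) and 1.0 (0.962 to 1.04).

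Cartilage genes moved in both directions. Of 10 counted genes, 4 fell and 2 rose, where 3.46% of all genes fell and 6.66% rose. Their median log2 ratio was -0.13. SOX9 was counted through its E6 level and COL2A1 through its E10 level. SOX9, the factor that begins cartilage, went from 43.3 to 8.16 CPM, 5.30-fold lower (4.23 to 6.70). CYTL1, a secreted cartilage protein, fell 5.19-fold (4.61 to 5.85), and CNMD (chondromodulin) 3.92-fold (3.49 to 4.42). The parathyroid hormone receptor PTH1R rose 4.69-fold (3.84 to 5.79). COL2A1, the collagen of mature cartilage, was at 5.98 and 15.7 CPM and was named after its values were seen. Its ratio was 1.53 with cells thinned to 450 UMIs and 1.87 with PDGFRA alone as marker, both under 2-fold.

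Signalling genes moved in both directions. In the BMP and TGFB pathway 6 of 35 genes rose and 4 fell, where 6.66% of all genes rose and 3.46% fell. The list median log2 ratio was 0.30. BAMBI, a decoy receptor, fell 5.16-fold (4.42 to 6.04), the receptor ACVR2B 3.62-fold (3.30 to 3.98), the antagonist NBL1 2.79-fold (2.66 to 2.92) and the ligand BMP2 2.32-fold (2.03 to 2.66). The ligand TGFB2 rose 2.44-fold (2.31 to 2.58) to 519 CPM, INHBA 3.61-fold (2.81 to 4.69) and FST (follistatin), which binds activin, 4.65-fold (3.67 to 5.98). With free RNA subtracted at the haemoglobin share, ACVR2B, NBL1 and BMP2 had E10/E6 ratios of 0.623, 0.552 and 0.944, all within 2-fold. TGFB2 was under 2-fold with at least 2000 UMIs a cell and with PDGFRA alone as marker.

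In the WNT pathway 4 of 26 genes rose and 3 fell, where 6.66% of all genes rose and 3.46% fell. The list median log2 ratio was 0.14. Beside WIF1, the ligand WNT5A of distal mesenchyme fell from 464 to 133 CPM, 3.49-fold (3.29 to 3.70), and LGR5, a receptor for R-spondins, from 35.6 to 5.84 CPM. LGR5 was counted through its E6 level. The E10/E6 ratio of WNT5A was 0.687 with free RNA subtracted at the haemoglobin share. DKK3 rose 2.68-fold (2.47 to 2.91), but not with TWIST2 or PDGFRA alone as marker, and WNT11 had a ratio of 1.91 (1.74 to 2.09). In the FGF pathway 4 of 19 genes rose and none fell, against the same 6.66% and 3.46% of all genes. The receptor FGFR3 went from 72.6 to 263 CPM, 3.63-fold higher (3.31 to 3.99), and the feedback inhibitor SPRY2 rose 2.37-fold (2.14 to 2.63), while FGFR1 had a ratio of 1.61 (1.53 to 1.69). No hedgehog pathway gene among 7 passed 2-fold, which for so few genes lies near the shares of all genes, 6.66% and 3.46%. GLI2 and GLI3 had ratios of 1.07 (0.983 to 1.17) and 0.764 (0.706 to 0.826). PDGFD, a ligand of the PDGF receptors, rose 5.34-fold (4.79 to 5.96).

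Adhesion genes had 9 of 32 higher and 4 lower, against 6.66% and 3.46% of all genes. Of these, LGALS1, CD44 and ITGA4, at 4.45, 8.21 and 9.32 CPM at E6, were counted through their E10 levels. GPC3 was counted through its E6 level. SDC2 (syndecan-2), a heparan sulphate proteoglycan, went from 123 to 845 CPM, 6.85-fold higher (6.39 to 7.34), and GPC3 (glypican-3), another, from 46.9 to 4.56 CPM, 10.3-fold lower (7.74 to 13.9). ITGA11, the collagen-binding integrin chain of fibroblasts, rose 5.16-fold (4.30 to 6.23), and was under 2-fold with PDGFRA alone as marker. LGALS1 (galectin-1) went from 4.45 to 122 CPM, 27.4-fold higher (19.3 to 40.2), and PCDH10, a protocadherin, fell 4.55-fold (3.94 to 5.27).

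Cell cycle genes stayed within 2-fold but for 1. None of 33 S phase genes passed it, where 6.66% of all genes rose and 3.46% fell past it. Their median log2 ratio was -0.22, and 26 of them had ratios below 1. PCNA had a ratio of 0.692 (0.661 to 0.724) and MCM5 one of 0.547 (0.503 to 0.595). Of 40 G2 and M phase genes only CBX5, which is also a heterochromatin protein, fell, and the median log2 ratio was 0.03. CBX5 stayed within 2-fold with at least 2000 UMIs a cell and with PDGFRA alone as marker. TOP2A had a ratio of 0.937 (0.897 to 0.979). In muscle-marker cells the medians were 0.18 for S phase and 0.49 for G2 and M phase. With at least 2000 UMIs a cell they were 0.09 and 0.67 in CT cells, where the S phase median had the opposite sign.

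Genes of early developmental timing had 4 of 16 lower and 1 higher, against 3.46% and 6.66% of all genes. Their median log2 ratio was -0.56. HMGA2 and DNMT3B were counted through their E6 levels. The falls included HMGA2, a chromatin protein of growing tissue, from 30.3 to 8.24 CPM, and DNMT3B, a DNA methyltransferase, from 24.5 to 3.28 CPM, both named after their values were seen. The HMGA2 ratio was 0.596 with free RNA subtracted at the haemoglobin share. IGF2BP3, an RNA-binding protein, had 659 and 354 CPM, a ratio of 0.537 (0.516 to 0.560).

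Among genes outside the lists, the transcription factors DACH1 and MECOM fell 14.5-fold (11.9 to 17.8) and 7.42-fold (6.45 to 8.57). SST (somatostatin), a peptide hormone, went from 2.64 to 528 CPM, 200-fold higher (128 to 332), from 19 UMIs at E6 and 6594 at E10. It was held by few cells. At E10 8.50% of CT cells had a UMI, 1 cell held 78, and the top 1% of cells held 44.9% of the UMIs. In E10 cells with TWIST2 its level was 793 CPM, with OSR1 784 CPM, with PDGFRA 330 CPM and with SCX 58.1 CPM. CRHBP, which binds corticotropin-releasing hormone, rose 14.6-fold (12 to 17.9), with 35.8% of its E10 UMIs in the top 1% of cells.

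The largest ratios of all belonged to haemoglobin genes, which are made by red blood cells. HBBA was at 0.696 CPM in E6 CT cells and 1222 CPM at E10. HBE1 had 0 UMIs at E6, and against a floor of 3 UMIs its ratio was 436, with an exact interval that starts at 354. At E10 the top 1% of CT cells held 96.0% of the HBBA UMIs. Summed haemoglobin was at 3.48 CPM in E6 CT cells and 247 CPM in E6 free RNA, and at 3216 and 4183 CPM at E10. Removing the 51 E10 CT cells with at least 10 haemoglobin UMIs, a choice made after seeing the data, removed 95.7% of these UMIs and left 501 of the 502 higher genes and 257 of the 261 lower genes past the limit. Muscle contractile genes had 7 of 8 higher, where 6.66% of all genes were. Among them ACTC1 went from 9.46 to 98.2 CPM, a log2 ratio of 3.38, where the largest in the list was 4.57. ACTC1 was under 10 CPM at E6 and was counted through its E10 level. Free RNA held ACTC1 at 240 and 1951 CPM. The median log2 ratio of these 8 genes was 1.69. With free RNA subtracted, fewer genes of the list kept a mean of at least 10 CPM. At the share set by ACTC1, which removes ACTC1 itself, the median over the 3 genes left was 0.61. At the share set by haemoglobin the 1 gene left had a log2 ratio of -2.01.

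The libraries also differed in W-linked genes, which females alone carry in birds and which were left out of all totals. They were at 351 CPM in E6 CT cells, with a UMI in 14.1% of the cells, and at 0.560 CPM at E10. Without the 392 E6 cells that held such a UMI, 489 of the higher and 252 of the lower genes were called again. The 304 Z-linked genes, placed by the RefSeq table of assembly GRCg7b, had a median log2 ratio of 0.05, and 5964 genes on other chromosomes one of -0.06.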

How the data were processed

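Forelimb cells of E6 and E10 chicken embryos had been sequenced with 10x 3′ chemistry, and the authors deposited UMI counts per gene and barcode, made with Cell Ranger 3.0.2 (per the file headers), STAR and the GRCg6a genome (per the labels). The deposited matrices were unfiltered. Cells needed at least 700 UMIs and at most 17% mitochondrial UMIs at E6, and at least 450 UMIs and at most 16% at E10. For the count of all cells, the E6 limits were applied to E4.

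UMIs of CT cells were summed per stage without the W-linked genes Wpkci-7, NIPBLL and SPIN1W and scaled to CPM. Ratios had conditional binomial, levels exact Poisson and shares Clopper-Pearson 95% intervals, which cover counting error alone. For ratios, genes at 0 were set to a floor of 3 UMIs per library. Genes with a mean of at least 10 CPM were counted, and 2-fold was the limit. With 1 library a stage no test was made. Cells were thinned with a fixed seed to 450 UMIs. Free RNA was the profile of barcodes with 10 to 100 UMIs. No doublets were removed, whereas the study used Scrublet. Its removal was an alternative (86 of 2776 and 2253 of 9554 CT cells) by a fixed share of the highest scores.

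Named genes were the 15 largest and 15 smallest ratios among genes with a symbol and a mean of at least 50 CPM, up to 8 of largest ratio (mean of at least 20 CPM) and up to 4 of highest level in each list, the 7 defining genes, OSR1, OSR2 and SCX. Others are said to be chosen after their values were seen. Cells and the 39 gene lists were chosen with earlier results of these data known. Gene symbols came from the files. Scrublet was run through scanpy 1.11.5, intervals came from scipy 1.17.1, and tables and figures from pandas 2.3.3 and matplotlib 3.10.9, under Python 3.11.15 with numpy 2.4.6. The scripts were tested on simulated data.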

Additional observations from a re-analysis of the deposited data

How the results depend on the processing

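No paired analysis was possible because each stage has 1 library. The counts of genes past 2-fold, the shares of cells that were CT cells and the medians of the main lists were recomputed under up to 24 alternatives. Only the counts were run under all 24, and the shares and medians under fewer. Of 406 values, 366 stayed within the allowed change. The change allowed was 1.5-fold for a count, the interval of the median over its genes for a list, and the exact interval for a share. For list medians of small size, a change of sign inside the interval counted as unchanged. Of 90 named genes past 2-fold, each recomputed under up to 19 of these alternatives, 65 stayed past it in all that were run and 75 did so when the free-RNA subtraction at the haemoglobin share was set aside. That subtraction gave 2294 higher and 1294 lower genes, of which 440 and 121 were shared with the 502 and 261. It gave list medians (log2) of 0.32 for limb patterning factors, 1.72 for mesenchyme factors, 1.89 for collagen processing, 2.06 for matricellular genes, 2.42 for proteases, 2.12 for muscle CT and dermis genes, 1.34 for BMP and TGFB, 1.23 for FGF, 1.43 for WNT and 1.57 for adhesion genes. The patterning median thus changed sign from -0.82, over 34 genes counted after the subtraction in place of 28. The subtraction left 1 muscle contractile gene counted, with a log2 ratio of -2.01, and reversed the ACTC1 ratio to 0.128. At E10 51 CT cells held 95.7% of the haemoglobin that set this share. Genes lost from the 2-fold side included TBX5 (0.546), LMX1B (0.674), WNT5A (0.687), ZFHX3 (0.931), NBL1 (0.552), ACVR2B (0.623), BMP2 (0.944), SNAI1 (0.513) and HMGA2 (0.596), given as E10/E6 ratios.

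Other alternatives moved counts through the limit itself. A mean of at least 2 CPM gave 988 higher and 647 lower genes, one of at least 50 CPM 171 and 72, a limit of 1.5-fold 923 and 792, and one of 4-fold 167 and 45, while 169 lower genes had the whole interval past 2-fold. The S phase median was 0.086 and the G2 and M phase median 0.67 with at least 2000 UMIs a cell, and the S phase median was -0.042 with PDGFRA alone, for which the cause was not tested. CT cells as a share of all cells, at E6 and E10, were 72.7% and 40.7% at 1000 UMIs, 75.3% and 40.6% at 2000 UMIs, 55.6% and 22.4% with PRRX1 alone, 35.5% and 19.6% with TWIST2 alone, 11.4% and 6.39% with PDGFRA alone, 56.1% and 20.3% with at least 2 marker UMIs, and 74.9% and 42.2% with OSR1 and SCX added. At E10 the share was 38.6% at 10% mitochondrial UMIs and 36.0% without the highest Scrublet scores. Alternatives chosen after seeing the data were the removal of cells with 10 or more haemoglobin UMIs, subtraction at the 2 other free-RNA shares, and removal of W-linked E6 cells.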
